A study of Mus musculus with 8 samples.

Results

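A set of 10 receptors for lipid mediators was followed in dorsal root ganglia, where the cell bodies of sensory neurons lie next to the spinal cord. Its members are 10 genes of the 40800 in the deposited table, taken by symbol: Lpar1, Lpar3, Lpar5 and Lpar6 for lysophosphatidic acid, S1pr1 and S1pr3 for sphingosine 1-phosphate, Cysltr2 for cysteinyl leukotrienes, Ptafr for platelet-activating factor, and Ptgir and Ptger3 for prostanoids. Bulk RNA was sequenced from the ganglia of 4 wild-type mice labelled C57BL/6 and of 4 mice with both Tmem184b alleles gene-trapped (homozygous) on a C57BL/6 background, all 6 months old. Such a trap is a cassette inserted into the gene that splices to the upstream exon and cuts the transcript short. The labels state neither sex nor litter, nor whether animals were pooled, and they give separate sample numbers (wild types 1, 3, 4 and 8, mutants 1 to 4), so every test measures the spread between these samples. The receptors were chosen by this same contrast, on the mutant and wild-type log2 CPM columns, so their differences between the genotypes are described here and carry no p-value.

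These receptors are G protein-coupled receptors of the cell surface that read lipids made on demand from membrane phospholipids. Lysophosphatidic acid and sphingosine 1-phosphate act on neurons, glia and vessels, cysteinyl leukotrienes and platelet-activating factor are made by immune cells, and prostaglandins E2 and I2 sensitise nociceptors during inflammation. Among sensory neurons, Lpar3 and Lpar5 are known from the nonpeptidergic class that expresses Mrgprd (here NP1), and Cysltr2 from the itch class that makes natriuretic polypeptide b and somatostatin (here NP3). In bulk ganglia, fewer cells of a type and less RNA per cell cannot be told apart.

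For each receptor the 250 bases before the annotated start of the gene were read from the RefSeq promoter table of build GRCm38.p6, which held 12 start sites for 9 of the 10 receptors and none for S1pr1. The 4 sequences shown belong to the receptors with the largest differences, and are printed 5′ to 3′ on the strand of the gene, with matches to the searched motifs in capitals.
Cysltr2, chr14:73049115-73049364, minus strand: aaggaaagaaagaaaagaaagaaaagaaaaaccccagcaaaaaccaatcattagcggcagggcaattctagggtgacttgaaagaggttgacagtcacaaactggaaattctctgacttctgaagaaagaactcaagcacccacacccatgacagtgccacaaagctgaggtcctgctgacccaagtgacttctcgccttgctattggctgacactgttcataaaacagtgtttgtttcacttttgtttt
Ptafr, chr4:132563817-132564066, plus strand: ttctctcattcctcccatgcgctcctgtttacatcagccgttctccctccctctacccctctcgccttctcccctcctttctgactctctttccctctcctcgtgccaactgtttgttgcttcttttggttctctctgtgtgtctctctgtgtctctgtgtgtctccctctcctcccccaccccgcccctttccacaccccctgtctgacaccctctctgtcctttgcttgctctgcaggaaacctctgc
Lpar3, chr3:146220711-146220960, plus strand: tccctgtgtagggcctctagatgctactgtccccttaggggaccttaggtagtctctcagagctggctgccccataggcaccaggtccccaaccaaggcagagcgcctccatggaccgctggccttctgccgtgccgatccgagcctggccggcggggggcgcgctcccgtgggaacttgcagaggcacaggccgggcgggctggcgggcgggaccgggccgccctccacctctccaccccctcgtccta
Lpar5, chr6:125067670-125067919, plus strand: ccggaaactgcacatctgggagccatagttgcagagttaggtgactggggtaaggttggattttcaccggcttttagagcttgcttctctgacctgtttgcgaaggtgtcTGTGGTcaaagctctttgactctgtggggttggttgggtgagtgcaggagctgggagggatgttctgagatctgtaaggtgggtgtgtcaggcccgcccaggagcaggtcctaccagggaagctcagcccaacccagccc
The motifs searched on both strands were TGTGGT, the core recognised by RUNX proteins, TAATTA, a homeodomain core, and TGACGTCA, the cAMP response element. The window of Lpar5 held TGTGGT once, 140 bases before the start, and a second Lpar5 start site held it at 2 places, 221 and 41 bases before that start. The windows of Cysltr2, Ptafr and Lpar3 held none of the motifs. Lpar1 held TGTGGT and TAATTA at 1 of its 3 start sites, and the windows of the remaining receptors held none. Of 32851 mouse promoter windows of this length, 14.0% held TGTGGT, 4.84% held TAATTA and 1.55% held TGACGTCA, so a match is a description of these letters and not of a bound site.

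Libraries held 6183618 to 7983821 reads, and 1 read was worth 0.125 to 0.162 CPM (reads counted relative to the library's total). The trapped gene, Tmem184b, was at 164 to 182 CPM in the wild types and 5.24 to 8.29 CPM in the mutants (log2 difference -4.64, SE 0.113; limma adjusted p = 2.57e-12). Xist, transcribed from the inactive X chromosome of females, had 2 to 7 reads in wild type 3 and mutants 3 and 4 and 1615 to 1902 reads in the other samples. Summed markers of all neurons lay at 8148 to 8981 CPM (wild type) against 8167 to 8795 CPM (mutant), so the dissected tissue held neuronal RNA in every sample. Over the 15030 genes in the fit, 820 (5.46%) passed a limma adjusted p of 0.05, with 2.81% called higher and 2.64% called lower in mutants, and 12.4% had groups that did not overlap (7.5% higher, 4.92% lower). The median log2 difference of all genes was 0.07 on the deposited scale and -0.03 with every sample's median set equal (median centring), which moved the calls from 423 higher and 397 lower to 204 and 706. On the deposited scale 35.6% of all genes were fitted lower in the mutant, and most were fitted higher. Leaving out wild type 1 gave 174 higher and 230 lower calls. Higher calls numbered 226 when wild type 3 was left out, 183 for mutant 1, 266 for mutant 2 and 206 for mutant 4.

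All 10 receptors passed the filter of a log2 CPM above 0 in at least 4 samples. Ptafr passed through its 4 wild types, with 2 of the 4 mutants above that level. By the fit across all genes 4 receptors (Cysltr2, Ptafr, Lpar3 and Lpar5) were called lower in the mutant and 0 higher, where 2.64% of all genes were called lower. The other 6 were not called, and nothing is read from these counts because the comparison also chose the list. Groups did not overlap for the 4 called receptors and for Lpar1 and Lpar6, which were higher in every mutant (4 lower beside 4.92% of all genes, 2 higher beside 7.5%). The median log2 difference of the 10 was -0.22, beside 0.07 for all genes.

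**Figure D1:**
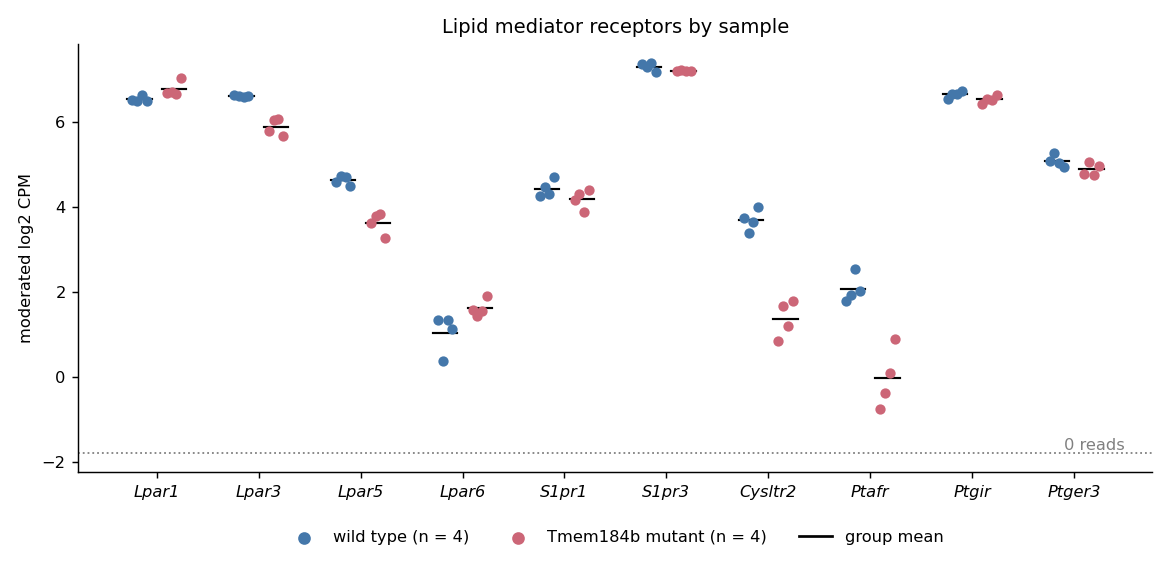
Moderated log2 CPM (vertical axis) of the 10 receptors in each wild-type (blue) and mutant (red) sample, with the group mean as a black line and the level of 0 reads dotted. The mutants lie below all wild types for Lpar3, Lpar5, Cysltr2 and Ptafr, and above them for Lpar1 and Lpar6.

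Levels of different genes were compared per kilobase of exon, from GENCODE M21 models. In wild type the order was Lpar3 at 39.5 ± 0.526 CPM per kb, S1pr3 at 35.3 ± 2.14, Ptgir at 29.996 ± 1.65, Lpar1 at 21.5 ± 1.05, Lpar5 at 16.2 ± 1.23, S1pr1 at 7.03 ± 1.06, Ptger3 at 5.91 ± 0.575, Cysltr2 at 4.45 ± 0.815, Ptafr at 1.10 ± 0.282 and Lpar6 at 0.340 ± 0.107 (SD, n = 4). Neighbours in this order did not overlap between samples except S1pr1 with Ptger3 and Ptger3 with Cysltr2. Lpar3 thus had the highest level per kb of the 10 in wild type. In the mutant it stood at 24.1 ± 3.38 CPM per kb, after S1pr3 at 33.0 ± 0.413, Ptgir at 27.7 ± 1.62 and Lpar1 at 25.5 ± 3.17, and its range overlapped that of Lpar1. Mutant levels of the others were 8.01 ± 1.36 for Lpar5, 5.94 ± 0.917 for S1pr1, 5.19 ± 0.549 for Ptger3, 0.832 ± 0.269 for Cysltr2, 0.517 ± 0.0818 for Lpar6 and 0.215 ± 0.155 for Ptafr. Ptafr passed from above Lpar6 in wild type to below it in the mutant, with no overlap in either genotype.

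The lysophosphatidic acid receptors differed in opposite directions. Lpar3 (ENSMUSG00000036832; GRCm38 chromosome 3, 146220963 to 146286186, plus strand), an EDG-family receptor, was at 99.1, 96.9, 96.0 and 97.7 CPM in the wild types (always in the order 1, 3, 4, 8), against 54.7, 65.7, 67.3 and 50.2 CPM in the 4 mutants. The wild types lay within a narrow band, while the mutants spread more widely and all stood lower. The fitted log2 difference was -0.72 (SE 0.0858), which left 61.0% of the wild-type CPM. Lpar5 (ENSMUSG00000067714; chromosome 6, 125067920 to 125082472, plus strand), which belongs to the purinergic-like branch of these receptors, was at 23.8, 26.2, 25.9 and 22.2 CPM in the 4 wild types, against 11.95, 13.4, 13.9 and 9.30 CPM in the 4 mutants. Its groups did not overlap, and mutant 4 was the lowest sample for Lpar5 as it was for Lpar3. The difference was -1.01 (SE 0.127), with 49.4% of the wild-type CPM remaining.

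Lpar1 (ENSMUSG00000038668; chromosome 4, 58435255 to 58553898, minus strand), the EDG-family receptor known from Schwann cells and fibroblasts, went the other way. It was at 90.8, 89.7, 98.8 and 89.3 CPM in the 4 wild types, against 102, 105, 101 and 130 CPM in the 4 mutants. Every mutant exceeded every wild type, and mutant 4 stood above the other mutants. The log2 difference of 0.24 (SE 0.0784) was not called, and it was 0.15 after median centring and 0.16 with mutant 4 left out. Fibroblast markers summed to 524 to 963 CPM (wild type) against 706 to 1012 CPM (mutant). Of these markers 5 of 5 were fitted higher (4 with median centring), where 35.6% of all genes were fitted lower, and 1 was called (Dcn). Myelinating Schwann cell markers summed to 2441 to 3202 CPM against 2890 to 3488 CPM, with 7 of 8 fitted higher and 2 called (Ncmap and Drp2). Non-myelinating Schwann cell markers summed to 1741 to 1984 CPM against 1761 to 1944 CPM, with 3 of 4 fitted higher (2 with median centring) and 0 called. Satellite glia markers summed to 496.8 to 564.6 CPM (wild type) against 565.3 to 802.1 CPM (mutant), with mutant 3 barely above the highest wild type. As a mean over these markers the genotypes overlapped, at 92.2% to 108.9% against 102.6% to 142.5% of the wild-type level. All 4 were fitted higher (3 with median centring) and 1 was called (Glul). Mutant 4, the highest sample for Lpar1, was also highest for the fibroblast and satellite glia sums and for skeletal muscle markers, at 149 CPM where the other samples had 2.86 to 43.2. No list had a marker at 0 in every sample, and the part of these cells in the Lpar1 level was not tested.

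Lpar6 (ENSMUSG00000033446; chromosome 14, 73237895 to 73243294, plus strand), a purinergic-like receptor, had 14, 8, 15 and 15 reads in the 4 wild types, against 18, 15, 17 and 24 in the 4 mutants. Its CPM did not overlap, at 1.002 to 2.22 in wild type and 2.43 to 3.43 in the mutant, but the difference of 0.57 (SE 0.256) was not called and was 0.35 without wild type 3. Lpar6 lies within Rb1, which is on the other strand and shares 408 exon bases with it. Stretches of its transcripts, at most 214 bases long, are at least 95% identical to transcripts of 27 other genes, Rb1 among them. Rb1 was at 34.2 to 36.4 CPM (wild type) against 37.3 to 40.7 CPM (mutant) (log2 difference 0.17, SE 0.0708; limma adjusted p = 0.190), and whether counting used the strand is not given in the sources used here.

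Within the reads of these 4 receptors the balance shifted from Lpar3 to Lpar1. Lpar3 made up 45.1% ± 1.44 of them (wild type) against 32.4% ± 4.64 (mutant), and Lpar5 11.4% ± 0.743 and 6.62% ± 1.22 (SD, n = 4 each). Lpar1 made up 42.7% ± 1.12 and 59.5% ± 5.63. The ratio of Lpar3 to Lpar1 reads, which no scaling of a library can move, was 1.09, 1.08, 0.972 and 1.09 in the 4 wild types, against 0.534, 0.628, 0.664 and 0.387 in the 4 mutants. The highest mutant ratio was below the lowest wild type, as it had to be with Lpar3 lower and Lpar1 higher in every mutant. The ratio is thus no separate result. Mutant 4 had the lowest ratio of all. Summed over the 4 receptors the level was 216 ± 5.07 CPM (wild type) against 184 ± 8.85 CPM (mutant).

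**Figure D2:**
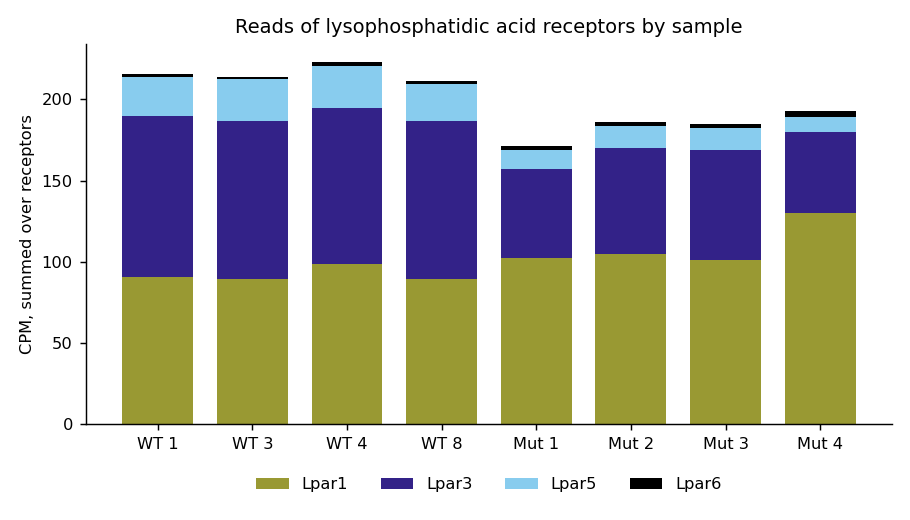
Stacked CPM of the 4 lysophosphatidic acid receptors (vertical axis) in each sample, wild types 1, 3, 4 and 8 (WT) and mutants 1 to 4 (Mut). The Lpar3 and Lpar5 segments are smaller in each mutant than in any wild type, and the Lpar1 segment is larger.

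Neither sphingosine 1-phosphate receptor was called, and both had lower fitted levels in the mutant. S1pr3 (ENSMUSG00000067586; chromosome 13, 51408639 to 51422797, plus strand), which is found in nociceptors, was at 163, 157, 166 and 144 CPM in the 4 wild types, against 147, 150, 147 and 146 CPM in the 4 mutants. Wild type 8 was the lowest of the 8 samples, and the other wild types lay above all mutants. The log2 difference was -0.10 (SE 0.0568) as deposited and -0.19 after median centring. S1pr3 shares 45 exon bases with Gm32834 on the other strand. S1pr1 (ENSMUSG00000045092; chromosome 3, 115710433 to 115715072, minus strand), a receptor of endothelial cells that some sensory neurons also carry, was at 18.7, 21.7, 19.4 and 25.9 CPM in the 4 wild types, against 17.5, 19.6, 14.5 and 20.9 CPM in the 4 mutants. The groups overlapped at a log2 difference of -0.24 (SE 0.131), which was -0.15 without wild type 8 and -0.14 without mutant 3. Summed endothelial markers (7 genes, none at 0 in every sample) ranged from 68.4 to 100.2 CPM (wild type) against 72.2 to 111 CPM (mutant), and their part in the S1pr1 level was not tested.

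The receptors for leukotrienes and platelet-activating factor had the 2 largest differences of the list. Cysltr2 (ENSMUSG00000033470; chromosome 14, 73025603 to 73049114, minus strand), which binds cysteinyl leukotrienes, was at 13.0, 10.1, 12.1 and 15.8 CPM in the 4 wild types, against 1.49, 2.91, 2.002 and 3.15 CPM in the 4 mutants. The read counts behind them were 81 to 125 per wild type and 10 to 22 per mutant, and the groups lay far apart. The fitted difference was -2.32 in moderated log2 units (SE 0.218), and 18.7% of the wild-type CPM remained. From the summed reads of each genotype the remaining share was 18.7% (exact binomial 95% interval 14.1% to 24.5%), an interval that covers counting error only, since reads are not independent molecules.

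Ptafr (ENSMUSG00000056529; chromosome 4, 132564067 to 132582683, plus strand), the receptor for platelet-activating factor known from macrophages and other myeloid cells, had 20, 28, 37 and 30 reads in wild types 1, 3, 4 and 8 and 2, 3, 5 and 11 reads in mutants 1 to 4. Mutants 1 and 2 lay at or under the 3 reads taken as the floor of detection, and mutant 4 had the most reads of the mutants. The level was 3.99 ± 1.03 CPM (wild type) against 0.782 ± 0.562 CPM (mutant) (SD, n = 4), a log2 difference of -2.11 (SE 0.332). It was -1.51 with 1 CPM added before the logarithm, since the scale shrinks the change of genes with few reads. Summed reads gave a remaining share of 20.1% (exact binomial 95% interval 11.96% to 32.1%). Stretches of at most 166 bases in Ptafr transcripts are at least 95% identical to transcripts of 134 other genes, and how the counting assigned reads from such stretches is not given in the sources used here.

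Macrophage markers were not lower in the mutant, where Ptafr was. The 9 markers summed to 48.2 to 77.2 CPM (wild type) against 66.7 to 105 CPM (mutant), and none was at 0 in every sample. Of 8 tested, 7 had a higher fitted level in the mutant, where 35.6% of all genes were fitted lower, and 1 was called (Cd163). The ratio of Ptafr to Csf1r, the receptor that defines macrophages, was 0.222, 0.283, 0.253 and 0.214 in the 4 wild types, against 0.0124, 0.0240, 0.0485 and 0.0567 in the 4 mutants. Every mutant ratio was thus below every wild type, but Ptafr alone, chosen by this contrast, already did not overlap. The ratios of mutants 1 and 2 rest on 2 and 3 Ptafr reads. Within each genotype the sample with the most Ptafr, wild type 4 and mutant 4, was also the one with the highest summed macrophage markers, at 77.2 and 105 CPM. The other mutants did not share this order. Of them mutant 1 had the least Ptafr and the highest sum (90.8 CPM), and mutant 3 the most Ptafr and the lowest sum (66.7 CPM). The part of these markers in the Ptafr level was not tested. The Ptafr difference was -1.95 without wild type 4 and -2.42 without mutant 4.

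The prostanoid receptors had lower fitted levels in the mutant and were not called. Ptgir (ENSMUSG00000043017; chromosome 7, 16906490 to 16910905, plus strand), the prostacyclin receptor, was at 92.4, 100.7, 101 and 106 CPM in the 4 wild types, against 85.9, 92.7, 91.9 and 99.1 CPM in the 4 mutants. The groups overlapped, with a log2 difference of -0.11 (SE 0.0644) as deposited and -0.21 after median centring. Ptger3 (ENSMUSG00000040016; chromosome 3, 157566892 to 157645888, plus strand), an inhibitory receptor for prostaglandin E2, was at 33.5, 38.2, 32.3 and 30.6 CPM in the 4 wild types, against 27.2, 33.2, 26.6 and 31.0 CPM in the 4 mutants. Its groups overlapped as well, at -0.19 (SE 0.0966). The ratio of Ptgir to Ptger3 was 2.997 ± 0.373 (wild type) against 3.15 ± 0.270 (mutant) (SD, n = 4).

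Receptors for the same kinds of lipid that are not among the 10 were tested in the same fit. This list was also chosen with earlier results of these data known. Of 29 such genes 16 passed the filter, 2 were called higher and 1 lower, or 18.8% beside 5.46% of all genes, and their median log2 difference was 0.22. Ptgdr, the receptor for prostaglandin D2, fell from 32.0 ± 2.97 to 21.7 ± 3.83 CPM (SD, n = 4), by 0.57 in log2 units (SE 0.117; limma adjusted p = 0.0123). Ptgfr, the receptor for prostaglandin F2-alpha, rose from 44.2 ± 4.08 to 58.2 ± 6.48 CPM, by 0.39 (SE 0.0915; limma adjusted p = 0.0221). Gpr17, an orphan receptor related to the leukotriene receptors, rose from 2.41 ± 0.570 to 5.16 ± 1.10 CPM, by 1.01 (SE 0.217; limma adjusted p = 0.0147). In all 3 the genotypes did not overlap. Ptgfr lost its call without wild type 1 (adjusted p = 0.0746), mutant 1 (0.0714) or mutant 4 (0.0631), and with median centring (0.0599, at a difference of 0.30), and Gpr17 without mutant 1 (0.0517). Ptger1, a prostaglandin E2 receptor at 37.5 ± 2.29 and 34.1 ± 1.55 CPM, differed by -0.14 and was not called (limma adjusted p = 0.334).

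**Figure D3:**
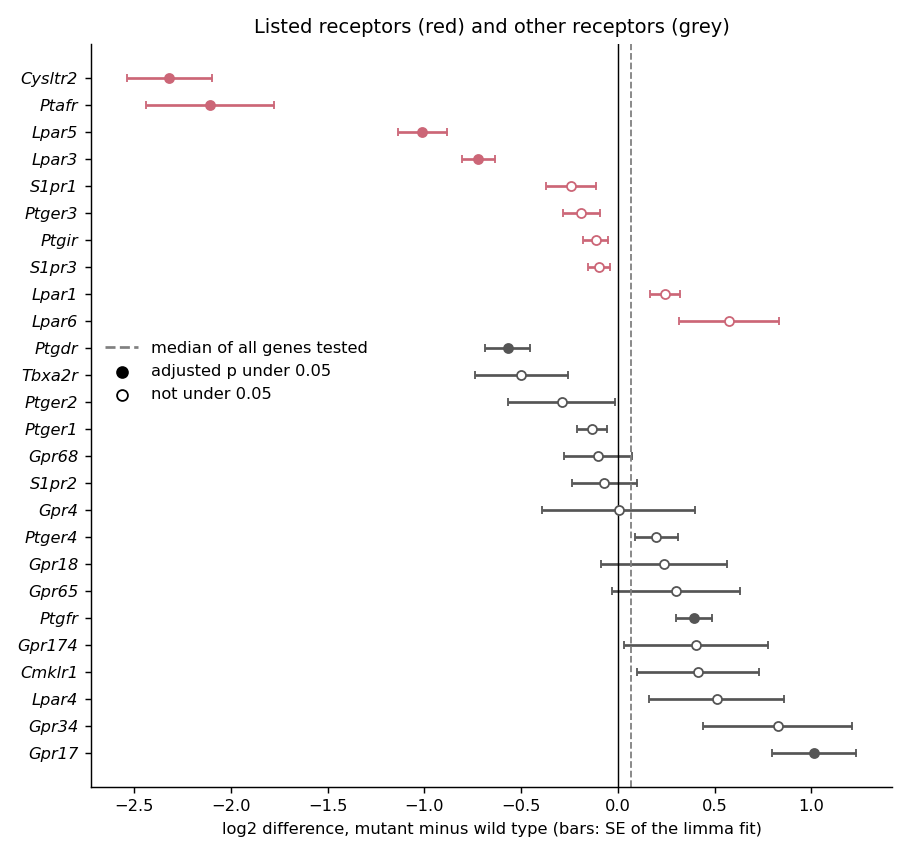
Log2 difference of mutant minus wild type (horizontal axis, bars show the SE of the fit) for the 10 receptors described (red) and the 16 tested receptors of the same ligand classes (grey); filled points had an adjusted p under 0.05, and the dashed line is the median of all genes at 0.07. Cysltr2 and Ptafr lie near -2 and Gpr17 near 1, with most others close to 0.

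Genes that make, carry or break down the ligands were examined by ligand, on lists chosen with earlier results of these data known. For lysophosphatidic acid, 1 of 15 tested genes rose and 0 fell (6.67% called beside 5.46% of all genes), with a median of 0.22. The riser was Plpp1, a lipid phosphate phosphatase, at 0.35 (SE 0.0889; limma adjusted p = 0.0360). Agpat1 and Gpam, acyltransferases with the highest levels on that list, differed by -0.05 (limma adjusted p = 0.656) and 0.26 (0.0550). Enpp2, the lysophospholipase D autotaxin, picked after its values were seen, was at 27.4 CPM in both genotypes (limma adjusted p = 0.961). For sphingosine 1-phosphate, 2 of 12 rose and 0 fell (16.7% called beside 5.46% of all genes), with a median of 0.09. Sphk2, a sphingosine kinase, rose by 0.50 (SE 0.1099; limma adjusted p = 0.0169), and Acer2, a ceramidase, by 0.94 (SE 0.251; limma adjusted p = 0.0434). The phosphatases Sgpp2 and Sgpp1 differed by -0.03 (limma adjusted p = 0.814) and 0.09 (0.464).

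Of the leukotriene list 0 of 8 tested genes were called by limma, with 2 at an unadjusted p under 0.05 and 0 called by voom on the recovered reads. All 8 had a fitted level above wild type as deposited, where 35.6% of all genes were fitted lower, and 6 with median centring. The median of the list was 0.32, and Mgst3 and Abcc1, the most abundant, differed by 0.12 (limma adjusted p = 0.504) and 0.08 (0.589). For platelet-activating factor, 1 of 15 rose and 0 fell (6.67% called beside 5.46% of all genes), with a median of 0.01. It was Pla2g4a, the cytosolic phospholipase A2 that frees arachidonic acid and lysophospholipids, at 1.08 (SE 0.291; limma adjusted p = 0.0433). Pafah1b1 and Pafah1b2, subunits of an acetylhydrolase, differed by -0.02 (limma adjusted p = 0.894) and -0.07 (0.547). For prostanoids, 1 of 16 rose and 0 fell (6.25% called beside 5.46% of all genes), with a median of 0.34. Ptges, a prostaglandin E synthase, was at 7.14, 6.89, 8.74 and 8.08 CPM in the 4 wild types, against 11.4, 13.1, 14.2 and 16.5 CPM in the 4 mutants, higher by 0.81 (SE 0.141; limma adjusted p = 0.00490). Ptgds and Ptges3 differed by 0.69 (limma adjusted p = 0.409) and -0.07 (0.567). The summed level of the prostanoid list was highest in wild type 4 and mutant 4, at 410 and 441 CPM, and so was that of the fibroblast markers, at 963 and 1012 CPM, whose part in this list was not tested.

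With median centring, genes fitted lower against higher numbered 6 and 9 for lysophosphatidic acid, 6 and 6 for sphingosine 1-phosphate, 2 and 6 for leukotrienes and 11 and 4 for platelet-activating factor, whose median was then -0.08. Ptges kept its call whichever sample was left out, and the other ligand genes called did not. The adjusted p of Plpp1 was 0.117 with wild type 1 left out, 0.0708 with wild type 4 left out, and 0.0538, 0.0870 and 0.0999 without mutants 1, 2 and 4 in turn. Sphk2 was no longer called with wild type 1 (0.0569), wild type 3 (0.0534) or mutant 1 (0.0576) left out. Acer2 lost it when any sample except wild type 4 was left out, with adjusted p from 0.0653 to 0.118. Pla2g4a lost it without wild type 1, 3 or 8 or mutant 1, 2 or 4, with adjusted p from 0.0721 to 0.112.

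Signalling genes downstream of these receptors were lower more often than higher. Of 30 tested G proteins, phospholipases, protein kinases, arrestins and channels, 11 fell and 0 rose, or 36.7% beside 5.46% of all genes called. The median log2 difference was -0.11. This list was chosen with earlier results of these data known, so the excess is a description and no independent support. Plcb3, the phospholipase C that couples Gq proteins to calcium release, fell from 792 ± 40.8 to 523 ± 67.0 CPM (SD, n = 4), by 0.61 in log2 units (SE 0.0800; limma adjusted p = 0.000917). Its partners Gnaq and Gna14, alpha subunits of the Gq class, fell by 0.37 (SE 0.0612; limma adjusted p = 0.00346) and 0.67 (SE 0.105; limma adjusted p = 0.00212). Among protein kinases C, Prkcd fell by 0.68, Prkca by 0.59 and Prkce by 0.30. Gnao1, an inhibitory-class alpha subunit, fell by 0.54, and Grk2, a receptor kinase, by 0.31. The channels Scn10a, Kcnk18 and Trpa1 fell by 0.46, 0.55 and 0.29. Over these 11 genes the limma adjusted p ranged from 0.000493 (Prkcd) to 0.0335 (Trpa1).

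Other members of the same families were not called. Of these, 3 were picked after their values were seen: Gna11 was at 93.3 and 92.6 CPM in wild type and mutant, and the phospholipases Plcb1 and Plcb4 differed by 0.23 (limma adjusted p = 0.0574) and 0.24 (0.0650). The number of effector genes called was 8 to 11 when each sample was left out in turn. Trpa1 lost its call when wild types 3 or 8 (adjusted p = 0.0694 and 0.0765) or mutants 2, 3 or 4 (0.0902, 0.0653 and 0.0636) were left out. Kcnk18, whose groups overlapped, lost it when wild types 1, 3 or 8 (0.0745, 0.0515 and 0.0554) or mutants 1, 2 or 4 (0.0612, 0.0532 and 0.0589) were left out. Prkce lost it without wild type 1 (0.0589), and Grk2 without wild type 1 (0.0569) or mutant 1 (0.0505). Without the mean-variance trend in the fit 3 were called, namely Plcb3, Prkca and Prkcd.

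**Figure D4:**
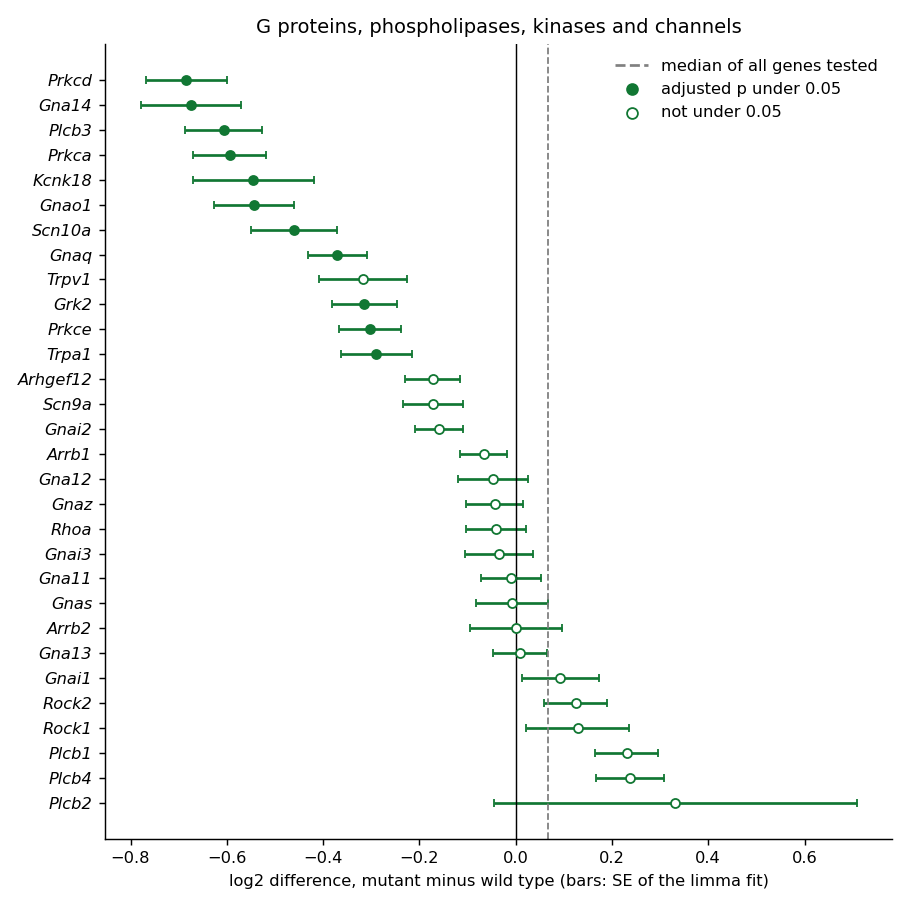
Log2 difference of mutant minus wild type (horizontal axis, bars show the SE of the fit) for 30 signalling genes downstream of the receptors; filled points had an adjusted p under 0.05, and the dashed line is the median of all genes at 0.07. The 11 filled points all lie below 0, from Prkcd at -0.68 to Trpa1 at -0.29.

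Markers of the neuron classes were read beside the receptors. All 6 NP1 markers fell, and their summed level was 1324 to 1435 CPM (wild type) against 737 to 1070 CPM (mutant). As a mean over these markers the mutants stood at 52.5% to 75.4% of the wild-type level, where Lpar3 stood at 51.5% to 69.1% and Lpar5 at 37.9% to 56.5%. Mutant 4 was the lowest and mutant 3 the highest of the mutants in all 3 of these measures. The wild types shared no such order. Wild type 4 was highest for the NP1 markers and lowest for Lpar3, and wild type 3 was highest for Lpar5. Wild type 8 was lowest for the NP1 markers and for Lpar5. Relative to Mrgprd, the NP1 receptor, Lpar3 was at 0.374 ± 0.0292 (wild type) against 0.409 ± 0.0446 (mutant), and Lpar5 at 0.0939 ± 0.0049 and 0.0831 ± 0.0102 (SD, n = 4). Both pairs of ratios overlapped between the genotypes. Of the 5 NP2 markers, of the itch class that expresses Mrgpra3, all were fitted lower and 2 fell (Mrgpra3 and Mrgprx1), and the mutants stood at 56.3% to 93.3% of the wild-type level. Of the 7 NP3 markers 6 fell. The unweighted mean of the 7 stood at 32.4% to 34.7% of the wild-type level in the mutants, where Cysltr2 stood at 11.7% to 24.6%. Single markers lay on both sides of Cysltr2 (log2 difference -2.32), with Sst at -4.06 and Osmr at -1.40. The ratio of Cysltr2 to Il31ra was 0.339 ± 0.0348 (wild type) against 0.683 ± 0.292 (mutant), from 3.68 ± 1.13 CPM of Il31ra in the mutant. It was higher in every mutant (0.435 to 1.1) than in any wild type (0.294 to 0.379), so Il31ra fell further than Cysltr2. Ptafr to Il31ra was 0.106 ± 0.0230 (wild type) against 0.244 ± 0.217 (mutant), a ratio that overlapped between the genotypes and rests on few reads in the mutant. Pan-neuronal markers lay at 93.2% to 98.3% of the wild-type mean in the mutants, with 1 of 7 called (Avil, lower). Peptidergic nociceptor markers, beside the prostanoid receptors, had a median log2 difference of 0.05 with 1 of 6 called (Calcb, lower). Large neurofilament neuron markers were fitted higher for 6 of 6 (5 with median centring), where 35.6% of all genes were fitted lower, with 1 called (Calb1). How far the markers account for the receptor levels was not tested.

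**Figure D5:**
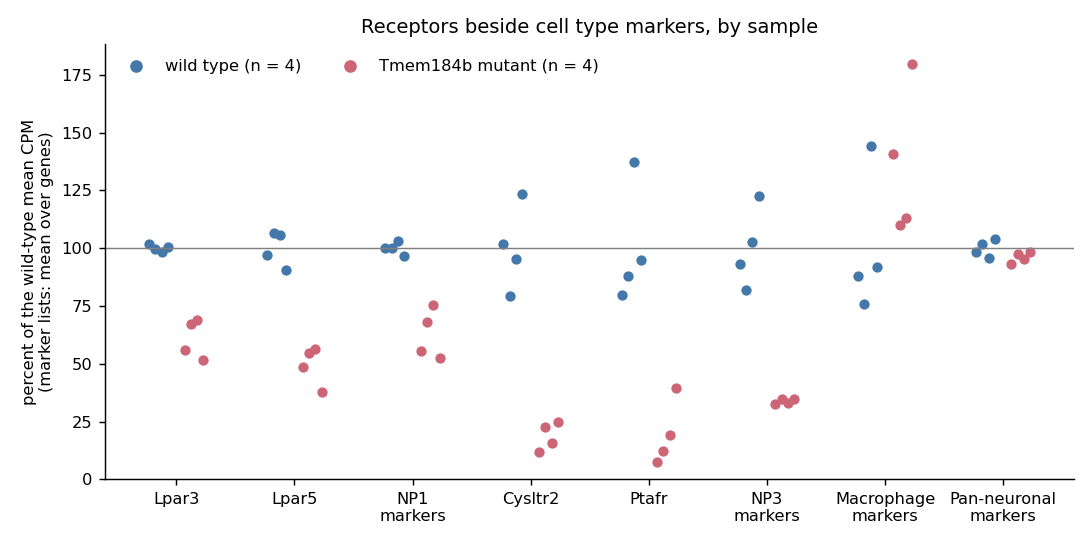
Level in each sample as percent of the wild-type mean CPM (vertical axis) for 4 receptors and for the mean over each list of cell type markers, wild types in blue and mutants in red. Lpar3 lies at 51.5% to 69.1% in the mutants, and macrophage markers lie at 110% to 180% of the wild-type mean. In each mutant Lpar5 lies below the mean of the NP1 markers and Cysltr2 below the mean of the NP3 markers. Single NP3 markers fell further than Cysltr2 (Sst) or less (Osmr).

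The genes whose pattern over the 8 samples was most like that of each receptor were found by Pearson's r of log2 CPM among all tested genes outside the list. These values describe samples that share libraries and fall into 2 genotypes, so r also follows the difference between genotypes, and they carry no test. Cysltr2 was closest to Sst (r = 0.988), which encodes somatostatin, and Osmr (0.982), the oncostatin M receptor subunit, with Ifit2 (0.979) after them. Lpar3 was closest to Ldb2 (0.993), Prkca (0.991) and Dcx (0.991), and Lpar5 to Palm2 (0.988), Apba1 (0.988) and Kcnn1 (0.987). Ptafr was closest to Kcnab1 (0.978), Ndufs5 (0.965) and Gm9800 (0.959), and Lpar1 to Gsto1 (0.984), Apeh (0.979) and Otop1 (0.969). By deviations from the genotype means other genes came first. Cysltr2 was then closest to Ccdc126 (r = 0.996), Tmem241 (0.991) and Upf3a (0.979). Lpar3 was closest to Osbpl3 (0.985), Lpar5 to 2700049A03Rik (0.988) and Ptafr to Dnajc11 (0.976). For the receptors with overlapping groups the closest gene was Gm9568 for S1pr1 (0.979), Trabd for S1pr3 (0.967), Chmp6 for Ptgir (0.978) and Ap1b1 for Ptger3 (0.982), and Mterf3 was closest to Lpar6 (0.967).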

How the data were processed

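RNA from dorsal root ganglia of 4 wild-type and 4 Tmem184b mutant mice was sequenced as single-end reads, per the labels' protocols. The deposited table gives moderated log2 CPM for 40800 genes, that is, the log2 of library-scaled counts (CPM) after the authors added a small prior count. The submitters' processing notes name Salmon 0.11.1, DESeq2 and mm9 with no role. From the deposited values whole reads came out for 100% of values (tolerance 0.05 reads), with a mean prior of 2 reads, and linear CPM was computed from them. The totals of 6183618 to 7983821 reads set the precision, and 3 reads were taken as the detection floor.

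Genes with log2 CPM above 0 in at least 4 of 8 samples (15030) were fitted by limma 3.58.1 (R 4.3.3), using its mean-variance trend and a two-sided test, and Benjamini-Hochberg adjustment over all of them with a threshold of 0.05. Exon lengths and positions came from GENCODE M21 (GRCm38), which held 40254 of the identifiers, and promoter sequences from RefSeq (GRCm38.p6). Groups came from the labelled genotype. Alternatives changed the filter, the added CPM, the scaling, the variance model, sample weights, an Xist covariate, the test (voom on recovered reads), the samples and a block on replicate numbers. Named genes were the trapped gene, all receptors, every called gene and the 2 most abundant of each list except marker lists, and the genes most like each receptor. Outside this rule, Enpp2, Gna11, Plcb1, Plcb4, Rb1, Xist and the called or reference genes of the marker lists were named after their values were seen. The receptors and lists were chosen with earlier results of these data known.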

Additional observations from a re-analysis of the deposited data

Results flagged for a closer look

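Of 58 groups of 4 samples examined, 4 had a sample far from the other 3 by Dixon's ratio, and chance alone gives about 1 in 20. For Lpar1, wild type 4 was at 6.63 log2 CPM (667 reads) while the other wild types were at 6.49 to 6.51, and mutant 4 was at 7.02 (908 reads) while the other mutants were at 6.67 to 6.71. For Ptgfr, wild type 1 was at 5.26 log2 CPM (240 reads) while the other wild types were all at 5.54. For Gnao1, mutant 4 was at 9.13 log2 CPM (3909 reads) while the other mutants were at 9.51 to 9.58.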

How the results depend on the processing

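The count of receptors called was 4 lower and 0 higher in each of the 20 alternatives, which is no sign of stability, since the receptors were chosen on these same columns. Genes called higher over the whole table numbered 204 after median centring, 271 after quantile normalization and 67 without the mean-variance trend, and genes called lower 706 after median centring and 75 without the trend. Leaving out 1 sample gave 174 to 572 higher and 230 to 427 lower. Other receptors called (3) numbered 0 without the trend, 2 with median centring (Ptgfr not called) and 1 to 3 with 1 sample left out. Lysophosphatidic acid genes called (1) numbered 2 with the stricter filter or sample weights, 3 with a robust trend, and 0 with median centring, quantile normalization, no trend or the Xist covariate. Sphingosine 1-phosphate genes called (2) numbered 1 with no filter, quantile normalization or the Xist covariate and 0 without the trend. Platelet-activating factor genes called (1) numbered 0 with no filter, quantile normalization or no trend. Prostanoid genes called (1) numbered 2 with 1 CPM added, a robust trend, sample weights or the Xist covariate. Effector genes called (11) numbered 3 without the trend. With 1 sample left out these lists had 0 to 2, 0 to 2, 0 to 1, 1 to 3 and 8 to 11 genes called, and the leukotriene list (0) had 0 to 1, the 1 without mutant 3. The causes were not tested.

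Replicate numbers 1, 3 and 4 occur in both genotypes. Same-numbered samples deviated together only weakly (r = 0.0806, 0.0414 and 0.0575), within the range of differently numbered samples (-0.200 to 0.105). These values do not decide whether same-numbered samples are paired. With a replicate block on these 6 samples 326 genes were called higher and 345 lower, and without the block 180 and 267. With the block the sphingosine 1-phosphate and platelet-activating factor lists had 0 genes called. Without it on the same 6 samples those lists and the lysophosphatidic acid list had 0, and the other receptors 1.

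Few reads limit Ptafr and Lpar6, for which counting error alone spans 11.96% to 32.1% and 108% to 227% of the wild-type level.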
